A study of Mus musculus with 26 samples.

Results

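The change of the genotype difference between 6 and 18 months was taken from 16 of the 26 arrays of the series, namely all arrays whose titles give the youngest and the oldest age. RNA of micro-dissected striatum was hybridised to mouse gene arrays (Affymetrix) for 4 WT and 4 YAC128 mice of 6 months and for 3 WT and 5 YAC128 mice of 18 months, 6 females and 10 males in all. The females were F1 and F2 of WT and F1 of YAC128 at 6 months. At 18 months they were F1 of WT and F1 and F2 of YAC128. Sex was thus not balanced between the genotypes at either age, and the main fit had no term for it. YAC128 mice carry full-length human HTT, its CAG repeat expanded, within a yeast artificial chromosome. They were hemizygous, on the C57BL6/J background like the WT mice, and no group received a treatment named in the labels. Ages are stated here in months, as in the methods, although the labels attach the same numbers to weeks. The paper states that mice of 1 age shared a chip, while the labels name no run or batch. Age and any such run cannot be told apart within a genotype, whereas the genotype difference at an age compares arrays of that age. Each mouse was measured once, and p-values measure the spread between these animals.

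Striatal projection neurons, the medium spiny neurons, are the cells that Huntington's disease affects first and most. They take up dopamine signals through D1 receptors in the direct pathway and D2 receptors in the indirect pathway, and they hold large amounts of signalling proteins such as phosphodiesterases, regulators of G proteins and the targets of protein kinase A. Reduced RNA of these signalling genes, with a smaller set of raised genes, is the known pattern of huntingtin mouse models. A gene's genotype difference is the mean log2 level in YAC128 minus that in WT, and its change is the difference at 18 months minus the difference at 6 months, so that a negative change means that YAC128 moved down relative to WT between the ages.

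Some genotype differences were present at both ages and others were found at 18 months. Genes such as Actn2, Scn4b, Cnr1, Ryr1 and Ddit4l were lower in YAC128 striata at both ages, while Oprk1, Gpx6, Slc7a11, Chil1 and Lxn were lower in YAC128 at 18 months by an unadjusted test that they did not pass at 6 months. No change passed the adjusted test. Of 34760 probesets 769 changed at an unadjusted p under 0.05 (limma), which is 2.21% of those tested and below the 1738 that evenly spread p-values would give, with 230 higher and 539 lower. Most of them, 508, were probesets without a gene, of which 4.3% passed against 1.02% of genes. Counts of probesets below include probesets without a gene. The Benjamini-Hochberg adjusted test called 0 probesets (0%), the smallest adjusted p being 0.9999, so that each p-value of a single change below is an unadjusted one. Over the 19937 genes with a probeset of their own, 84 changes were higher (0.421%) and 119 lower (0.597%). The design is small: for the 11469 genes above the median level of 7.46, the median half-width of the 95% interval of a change was 0.26 on the log2 scale, with a 95th percentile of 0.51. Leaving out the old WT male M2 gave the highest count of the fits that leave out 1 array, 1304 probesets at the unadjusted threshold. With sex as a term 1312 probesets changed at that threshold and 0 at the adjusted one.

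Genotype differences of a single age were more frequent than changes. At 6 months 163 genes were higher in YAC128 (0.818%) and 193 were lower (0.968%) at an unadjusted p. At 18 months the counts were 342 higher (1.72%) and 473 lower (2.37%), and 1 probeset passed the adjusted test there against 0 at 6 months. A larger count at 18 months is no test of growth, since a count at each age does not test the change. The split of arrays between WT and YAC128 also differs, 4 and 4 at 6 months against 3 and 5 at 18 months. Both ages together gave 84 genes, 23.6% of the 356 of 6 months and 10.3% of the 815 of 18 months, and 81 of the 84 had the same sign, 56 lower and 25 higher in YAC128. Across the genes above the median level the differences at the 2 ages, measured in separate animals, had a Pearson correlation of 0.49 and a Spearman correlation of 0.42, which are given as a description because genes are not independent. The SD of the differences over these genes was 0.083 at 6 months and 0.11 at 18 months.

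**Figure D1:**
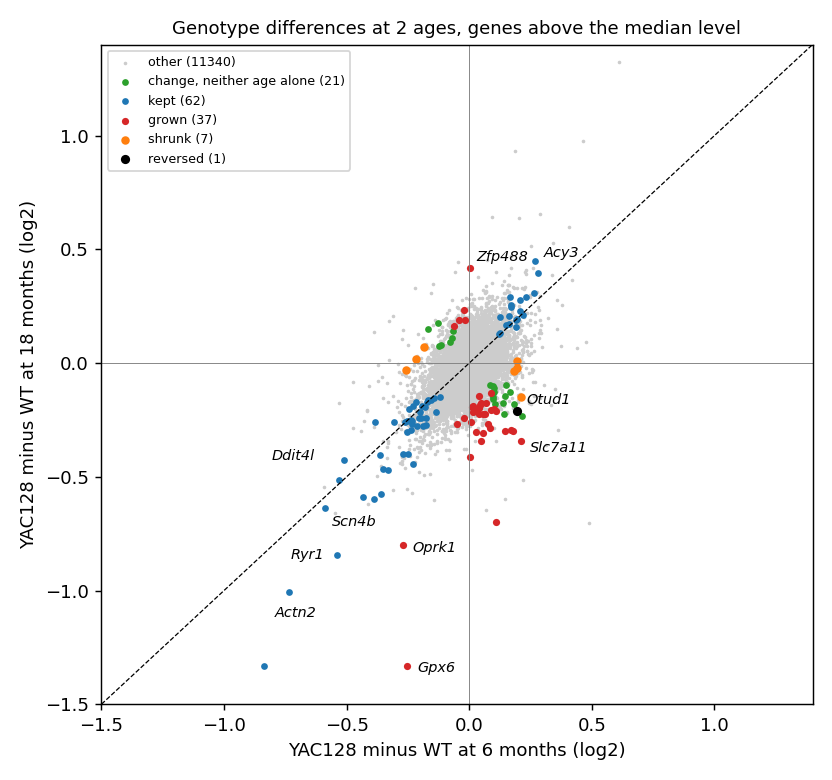
Each point is a gene above the median level, with the YAC128 minus WT difference (log2) at 6 months on the x axis and at 18 months on the y axis, colours marking the classes, and the dashed line marking equal differences. The 62 kept genes have the same sign on both axes and lie up to 0.50 from the line, Gpx6 lies 1.08 below it, and Otud1 is positive at 6 months and negative at 18 months.

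Genes were classed by these tests at the unadjusted threshold. A gene was called grown when its change passed and its difference passed at 18 months and was larger there, shrunk when the change passed and the difference passed at 6 months and was larger there, reversed when both differences passed with opposite signs, and kept when both passed with the same sign and the change did not. Of all genes 107 were grown (0.537%), 26 shrunk (0.13%), 3 reversed and 81 kept (0.406%), and 346 were grown when the old WT male M2 was left out. Above the median level there were 37 grown genes, 32 of them lower in YAC128 at 18 months, together with 7 shrunk genes, 1 reversed gene and 62 kept genes. The change of 21 further genes passed although neither class rule was met. The gene just inside the threshold, Slc7a2, had a change of -0.20 (SE 0.096) and the gene just outside it, G2e3, one of -0.24 (SE 0.11).

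The arrays labelled 12, from 5 WT and 5 YAC128 mice of 12 months, took no part in these rules and give a separate reading of the classes. Of the 62 kept genes 59 (95.2%) had at 12 months the sign that they had at both other ages, and in 32 (51.6%) the difference of 12 months passed the unadjusted test in that direction. Of the 37 grown genes 26 (70.3%) had the sign of 18 months and 11 (29.7%) passed in it. Over all 11468 genes above the median level, sex-linked genes left out, 56.7% had the sign of 18 months and 3.88% passed in it. Signed by the direction of 18 months, the grown genes had a median difference of -0.045 at 6, 0.071 at 12 and 0.23 at 18 months, and the kept genes had medians of 0.22, 0.16 and 0.26. The grown genes that passed at 12 months include Oprk1, at -0.35 (SE 0.10), Gpx6, at -0.54 (SE 0.10), Slc7a11, at -0.27 (SE 0.073), and Zfp488, at 0.35 (SE 0.047).

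Oprk1, the kappa opioid receptor, which binds dynorphin and couples to inhibitory G proteins, had the clearest growth among receptors. Its log2 level was 8.58, 8.59, 8.59 and 8.39 in the 4 WT mice of 6 months and 8.48, 7.88, 8.38 and 8.33 in the 4 YAC128 mice. At 18 months it was 8.71, 8.79 and 8.50 in WT and 8.05, 7.78, 7.85, 7.52 and 8.13 in YAC128. The genotypes overlapped at 6 months, and at 18 months every YAC128 mouse lay below every WT mouse. The difference was -0.27 (SE 0.14) at 6 months and -0.80 (SE 0.14) at 18 months, a change of -0.53 (SE 0.20, unadjusted p = 0.0162 by limma). The age change was 0.13 (SE 0.15) in WT and -0.40 (SE 0.13) in YAC128. Leaving out any 1 array kept the p under the threshold, and without both YAC128 males M2 the change was -0.41 (unadjusted p = 0.0496 by limma).

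Gpx6, of the glutathione peroxidase family, had the largest change in size among the grown genes above the median level. At 6 months the WT levels were 8.41, 8.59, 8.49 and 7.60 and the YAC128 levels 8.22, 8.19, 7.46 and 8.21. At 18 months they were 9.20, 9.15 and 8.27 in WT and 7.74, 7.99, 7.63, 6.50 and 7.85 in YAC128, with no overlap. The male M2 was the lowest of its group in all 4 groups. The difference went from -0.25 (SE 0.32) to -1.33 (SE 0.33), a change of -1.08 (SE 0.46, unadjusted p = 0.0315 by limma). In 6 of the 16 fits that leave out 1 array the p was at or over the threshold, with unadjusted p-values up to 0.0845 by limma, and without both YAC128 males M2 the change was -1.003 (unadjusted p = 0.0106 by limma).

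**Figure D2:**
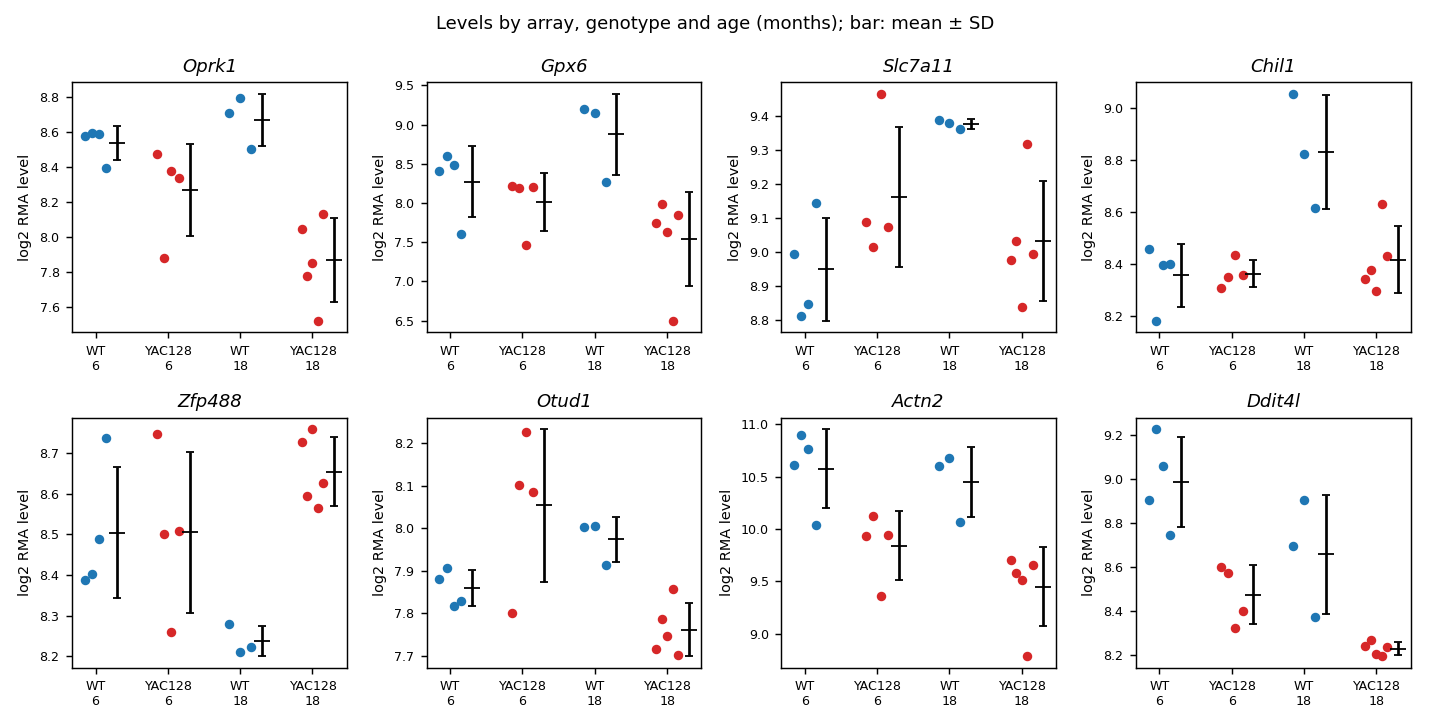
Points are single arrays, with the log2 level on the y axis and genotype and age in months on the x axis, blue for WT and red for YAC128, and the bar beside each group is its mean ± SD. Oprk1, Gpx6 and Zfp488 separate the genotypes at 18 months and overlap at 6 months, whereas Actn2 is lower in YAC128 at both ages apart from 1 array at 6 months.

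In several of the grown genes the levels differed between the ages mainly in WT. Slc7a11, the cystine-glutamate exchanger of the plasma membrane, was at 8.99, 8.81, 8.85 and 9.14 in WT and 9.09, 9.02, 9.47 and 9.07 in YAC128 at 6 months. At 18 months it was at 9.39, 9.38 and 9.36 in WT and 8.98, 9.03, 8.84, 9.32 and 8.99 in YAC128. All 3 old WT mice lay above all 5 old YAC128 mice, although the YAC128 male M2 came close. Its difference was 0.21 (SE 0.11) at 6 and -0.34 (SE 0.12) at 18 months, a change of -0.56 (SE 0.16, unadjusted p = 0.00334 by limma), with an age change of 0.43 (SE 0.12) for WT and of -0.13 (SE 0.11) for YAC128. Chil1, a secreted chitinase-like protein made by astrocytes, was at 8.46, 8.18, 8.39 and 8.40 in WT and 8.31, 8.35, 8.43 and 8.36 in YAC128 at 6 months. The old mice had 9.05, 8.82 and 8.62 in WT and 8.34, 8.38, 8.30, 8.63 and 8.43 in YAC128, where 1 YAC128 mouse reached the lowest WT mouse. The change of Chil1 was -0.42 (SE 0.14, unadjusted p = 0.00755 by limma), and its age change was 0.47 (SE 0.10) in WT against 0.054 (SE 0.090) in YAC128.

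Lxn, an inhibitor of carboxypeptidases, Igfbp5, which binds insulin-like growth factors, and Mfap3l had the same arrangement of values. The changes were -0.46 (SE 0.13, unadjusted p = 0.00285 by limma) for Lxn, -0.47 (SE 0.17, unadjusted p = 0.0123 by limma) for Igfbp5 and -0.30 (SE 0.081, unadjusted p = 0.00204 by limma) for Mfap3l. The WT age changes of the 3 genes were 0.37 (SE 0.098), 0.48 (SE 0.13) and 0.28 (SE 0.061), and the YAC128 age changes were -0.091, 0.0093 and -0.022. The Mfap3l levels of the 3 old WT mice, 8.74, 8.73 and 8.69, lay above all other 13 arrays. Over the 32 grown genes that were lower in YAC128 at 18 months, the WT level was higher at 18 than at 6 months in 28 and the YAC128 level was lower in 29, and the WT age change was the larger in size in 16. These counts follow in part from the rule, which favours opposite age changes.

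The other genes of smallest p in the lower direction were Gnb4, a G protein beta subunit, at -0.44 (SE 0.16), Rgs12, a regulator of G protein signalling, at -0.36 (SE 0.13), and Dzip1l, a protein of the ciliary base, at -0.22 (SE 0.078). Ldhal6b and Ssh3, described among the shrunk genes, complete the list with Otud1. The difference of Rgs12 passed at neither age, being 0.18 at 6 and -0.18 at 18 months, and its change had unadjusted p = 0.0581 by limma without both YAC128 males M2.

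Otud1, a deubiquitinating enzyme, was the only gene above the median level that was higher in YAC128 at 6 months and lower at 18 months by both tests. It was at 7.88, 7.91, 7.82 and 7.83 in WT and 7.80, 8.10, 8.23 and 8.08 in YAC128 at 6 months. The old mice had 8.002, 8.005 and 7.913 in WT and 7.71, 7.79, 7.75, 7.86 and 7.70 in YAC128. The young YAC128 female F1 lay below all young WT mice and the other 3 above them, and at 18 months the genotypes did not overlap. The differences were 0.19 (SE 0.077) and -0.21 (SE 0.080), a change of -0.41 (SE 0.11, unadjusted p = 0.00221 by limma).

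Of the upward changes among grown genes above the median level, 5 in all, that of Zfp488, a zinc finger repressor known from oligodendrocytes, had the smallest p. Its levels at 6 months were 8.39, 8.40, 8.49 and 8.74 in WT and 8.75, 8.50, 8.26 and 8.51 in YAC128. At 18 months they were 8.28, 8.21 and 8.22 in WT and 8.73, 8.60, 8.76, 8.57 and 8.63 in YAC128, so that the genotypes overlapped at 6 months and were apart at 18 months. The difference went from 0.0011 (SE 0.097) to 0.42 (SE 0.10), a change of 0.42 (SE 0.14, unadjusted p = 0.00904 by limma), which stayed under the threshold without any 1 array. The other grown genes that were higher at 18 months were Pcdhb4, an adhesion protein of the clustered protocadherins, at 0.25 (SE 0.11), Atg4b, a protease of autophagy, at 0.23 (SE 0.10), Gpr137b at 0.22 (SE 0.10) and Skp1, a subunit of ubiquitin ligases, at 0.20 (SE 0.092). Each of these 4 lost the threshold in 8 to 11 of the 16 fits that leave out 1 array. Trmt2b, a tRNA methyltransferase, Dpcd, Chd7, a chromatin remodeller, Vgll2 and Mrpl9, a protein of the mitochondrial ribosome, changed by 0.17 to 0.32 with a difference that passed at neither age.

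The 7 shrunk genes had differences of 6 months that were near 0 at 18 months or pointed the other way. Tsc22d3, a leucine zipper protein induced by glucocorticoids, was at 7.96, 7.87, 8.07 and 7.77 in WT and 7.78, 7.83, 7.67 and 7.65 in YAC128 at 6 months, and the groups overlapped. At 18 months it was at 7.99, 8.06 and 8.09 in WT and 8.18, 8.14, 8.04, 8.21 and 8.01 in YAC128, also with overlap. Its difference went from -0.19 (SE 0.074) to 0.070 (SE 0.076), a change of 0.26 (SE 0.11, unadjusted p = 0.0293 by limma). Ssh3, a phosphatase of cofilin, was at 8.18, 8.08, 8.12 and 8.01 in WT and 8.28, 8.24, 8.37 and 8.28 in YAC128 at 6 months, without overlap. At 18 months it was at 8.21, 8.29 and 8.24 in WT and 8.20, 8.32, 8.22, 8.21 and 8.17 in YAC128. Its difference went from 0.19 to -0.022, a change of -0.22 (SE 0.081, unadjusted p = 0.0179 by limma). Of the others, Ldhal6b, a lactate dehydrogenase relative, had 0.21 at 6 and -0.15 at 18 months, Alox8, a lipoxygenase, -0.22 and 0.020, Zfp202 0.20 and 0.0070, and Yap1, the coactivator of the Hippo pathway, 0.18 and -0.033. At 12 months 5 of the 7 had the sign of 6 months, with a median of 0.097 in that direction, and 4 had the sign of 18 months. At 12 months 0 of the 7 passed in the direction of 18 months. Alox8 passed opposite to it, at -0.15 (SE 0.056), with the sign that it had at 6 months. Alox8, Zfp202, Yap1 and Tsc22d3 each lost the threshold in 6 to 11 of the 16 fits that leave out 1 array, and Ssh3 and Ldhal6b in 0. Without both YAC128 males M2 the changes of Tsc22d3 and Ssh3 were 0.21 and -0.19, with unadjusted p = 0.0885 and 0.0523 by limma.

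The kept genes carry the largest differences that were already present at 6 months. Actn2, an actin crosslinker of dendritic spines, was at 10.61, 10.90, 10.76 and 10.04 in WT and 9.93, 10.12, 9.36 and 9.94 in YAC128 at 6 months. In the old mice it was at 10.60, 10.68 and 10.07 in WT and 9.70, 9.58, 9.51, 8.78 and 9.66 in YAC128. At 6 months 1 YAC128 mouse overlapped the lowest WT mouse, and at 18 months none did. The differences were -0.74 (SE 0.23) and -1.005 (SE 0.24), and the change of -0.27 had a 95% interval from -0.97 to 0.43. Scn4b, the beta 4 subunit of sodium channels, had differences of -0.59 and -0.64 with an interval of the change from -0.80 to 0.70, and its WT and YAC128 values overlapped at both ages, where the lowest WT mouse was the male M2. Cnr1, the cannabinoid receptor, had -0.43 and -0.59 (interval of the change -0.73 to 0.42), and Ryr1, a calcium release channel, had -0.54 and -0.85 (interval -0.86 to 0.24). These intervals include changes as large as the differences themselves. The largest kept difference belonged to Gm10754, a predicted gene, at -0.84 and -1.33 (interval -1.63 to 0.64).

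Other kept genes had narrower intervals. Ddit4l, an inhibitor of mTOR signalling, was at 8.91, 9.22, 9.06 and 8.75 in WT and 8.60, 8.57, 8.32 and 8.40 in YAC128 at 6 months. At 18 months it was at 8.69, 8.90 and 8.37 in WT and 8.24, 8.27, 8.20, 8.19 and 8.23 in YAC128, with no overlap at either age. Its differences were -0.51 (SE 0.11) and -0.43 (SE 0.12) and its change 0.083 (95% interval -0.26 to 0.43). Cdk19, a kinase of the Mediator complex, had -0.26 at both ages (change 0.0034, interval -0.22 to 0.22). Atf6, a sensor of stress in the endoplasmic reticulum, had -0.25 and -0.30 (interval -0.27 to 0.17), and B3galt1, a galactosyltransferase, had -0.18 and -0.24 (interval -0.24 to 0.11). Of the raised kept genes, Acy3, an aminoacylase, was at 7.56, 7.66, 7.56 and 7.73 in WT and 7.86, 7.79, 7.90 and 8.02 in YAC128 at 6 months, and at 7.65, 7.70 and 7.71 against 7.92, 8.25, 8.19, 8.18 and 8.13 at 18 months. The genotypes of Acy3 were apart at both ages, with differences of 0.27 and 0.45 and an interval of the change from -0.046 to 0.41. Abca8a, a lipid transporter, had 0.27 and 0.31 (interval -0.19 to 0.27) while its level rose by 0.52 in WT and by 0.57 in YAC128. Of the 62 kept genes 50 had an interval of the change within 0.5 of 0 on either side and 17 within 0.25. The larger difference was at 18 months in 49 of the 62, against 12088 of all 19937 genes, those below the median level included.

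For the mouse huntingtin gene itself, the Htt difference was 0.051 (SE 0.060) at 6 and 0.024 (SE 0.062) at 18 months, and the change was -0.027 (95% interval -0.21 to 0.16). Bdnf, the growth factor that striatal neurons receive from cortex, was below the median level, with differences of 0.027 and 0.055 and a change of 0.027 (SE 0.18).

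Gene lists are described by medians beside those of all genes, whose median difference was 0.0081 at 6 and 0.0036 at 18 months and whose median change was -0.0069. Among all 19937 genes 12246 had the same sign at both ages and 12088 had the larger difference at 18 months. The same counts of each list below are to be read beside these. Of the 32 measured genes of medium spiny neuron signalling 30 had the same sign at both ages and 27 had the larger difference at 18 months. The median difference was -0.22 at 6 and -0.31 at 18 months and the median change -0.12. With the high or low signal of an array described at the end as a term in the fit, the same medians were -0.076, -0.23 and -0.20. At 6 months 4 of the 32 were lower at an unadjusted p, against 0.968% of all genes, and at 18 months 9 were, against 2.37%. Only Oprk1 passed for the change, against 0.597% of all genes in the lower direction. Rgs9, which speeds the end of dopamine receptor signals, went from -0.22 to -0.45, and Pde10a, the main phosphodiesterase of these neurons, from -0.28 to -0.45, while Ppp1r1b, the DARPP-32 protein, had -0.33 and -0.37. The 5 genes of the indirect pathway, among them Drd2, the D2 receptor, and Penk, the precursor of enkephalin, had a median of -0.31 at 6 and -0.45 at 18 months and a median change of -0.14, negative in all 5. The 9 of the direct pathway had -0.044 and -0.038 and a median change of -0.091, negative in 7. Without both YAC128 males M2, described next, the medians of the direct pathway were 0.18 and 0.051 with a median change of -0.14, and the median change of the indirect pathway was -0.16. The sign of both median changes depended on single arrays. Without the young YAC128 male M2 alone they were -0.27 for the direct and -0.31 for the indirect pathway. Without the old YAC128 male M2 alone they were above 0, at 0.057 and 0.040. In bulk tissue, fewer cells of a type and less RNA per cell cannot be told apart.

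The males numbered M2 stood apart in these lists, the 2 YAC128 males furthest. The mean level of the medium spiny neuron list was 10.17 in the YAC128 male M2 of 6 months against 10.61 to 10.75 in the others of its group, and 9.84 in the YAC128 male M2 of 18 months against 10.45 to 10.53. The WT males M2 were also the lowest of their groups, at 10.46 and 10.44. Over the 14 markers of cortical projection neurons the male M2 had the highest mean of each group. Its mean was 9.27 in WT and 9.49 in YAC128 at 6 months, and 8.79 and 9.26 at 18 months. The group ranges were 8.16 to 9.27 in WT and 8.06 to 9.49 in YAC128 at 6 months, and 8.31 to 8.79 and 8.40 to 9.26 at 18 months. The 17 markers of choroid plexus and ependyma ranged from 7.02 to 7.62, 6.93 to 8.28, 7.11 to 7.25 and 7.12 to 8.35 in the same order, and their median difference was 0.16 at 6 and 0.44 at 18 months. Without both YAC128 males M2 the medium spiny neuron medians were -0.085 at 6 and -0.19 at 18 months, and the median change was -0.12 as before. This removal is one-sided, since it takes low arrays from YAC128 and keeps the low WT males M2, which by itself moves the differences at each age upwards. When 1 array was left out, the median change of the list ran from -0.26, with the old WT male M2 left out, to 0.032, with the old YAC128 male M2 left out, and it was also above 0, at 0.012, when the young WT male M2 was. The part of tissue makeup in the list's medians was not tested.

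**Figure D3:**
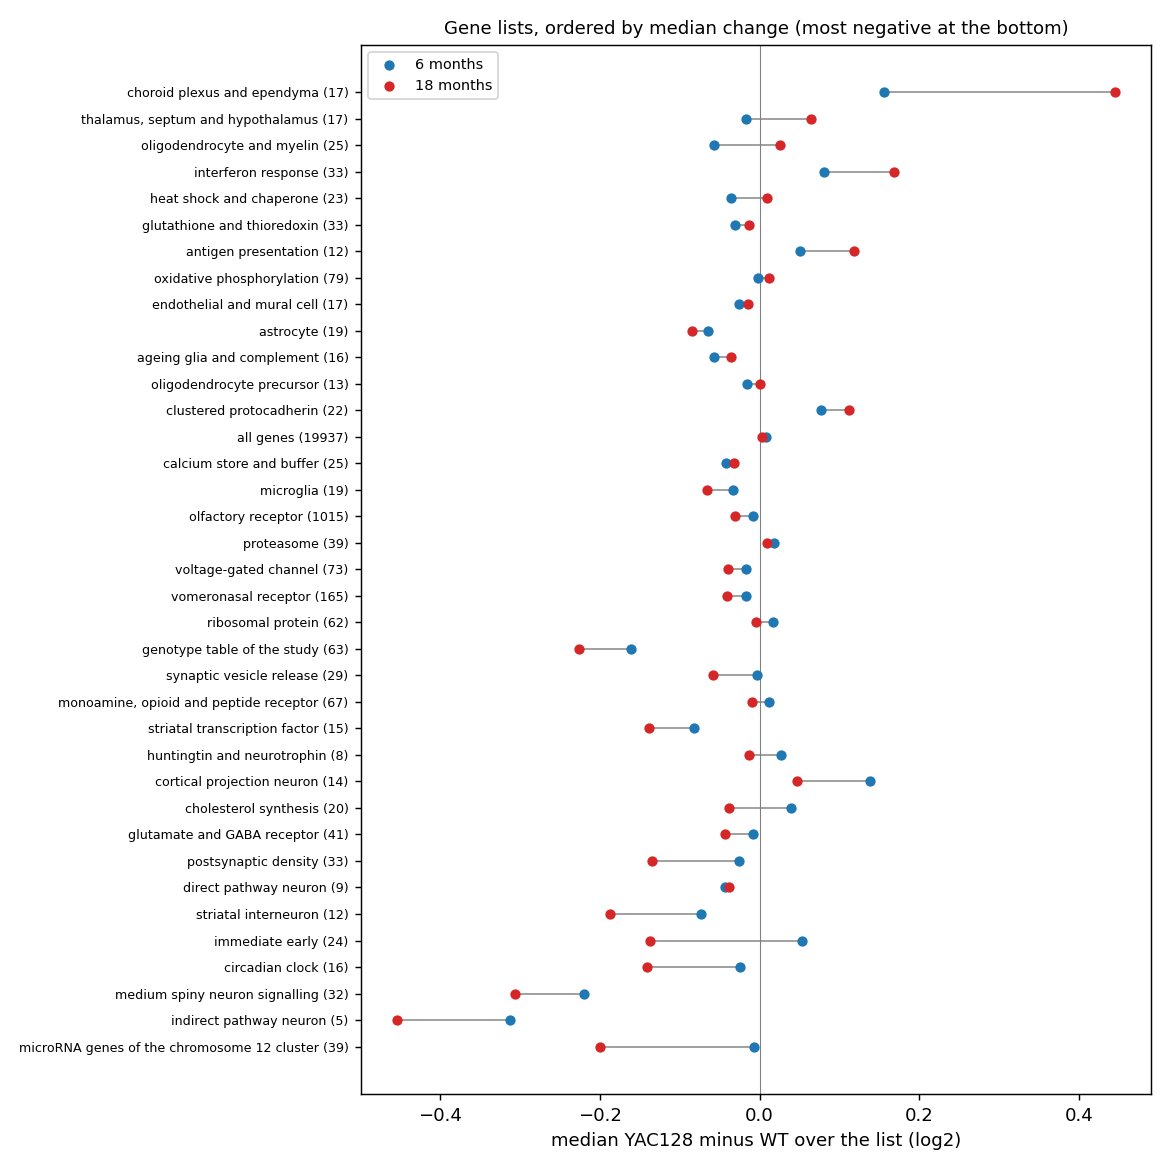
For each list, with its number of genes, the blue point is the median YAC128 minus WT difference (log2) at 6 months and the red point that at 18 months, lists being ordered by median change. The medium spiny neuron and indirect pathway lists lie furthest to the left at both ages, and the microRNA genes of the chromosome 12 cluster go from -0.0071 to -0.20.

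Interferon response genes, which cells switch on against viruses and foreign nucleic acid, were mostly further up in YAC128 at 18 than at 6 months. Of 33 measured genes 31 had the same sign at both ages and 29 had the larger difference at 18 months. Their median difference was 0.081 at 6 and 0.17 at 18 months, the median change was 0.073, and the number passing at an unadjusted p was 0 at 6 and 10 at 18 months, all higher, against 1.72% of all genes. The mean level of the list was 7.14 to 7.27 in WT and 7.20 to 7.32 in YAC128 at 6 months, and 7.18 to 7.39 and 7.37 to 7.51 at 18 months, so that the ranges overlapped at both ages. The change of this mean was 0.092 (SE 0.074), and 13 of the 33 genes lay above the median level. The highest old WT mouse was the female F1, without which the median change was 0.16, and without the WT male M1 of 18 months it was 0.016. In the 8 arrays of high signal described at the end the median change was 0.0052, and in the 8 of low signal it was 0.14. The high arrays hold 1 young YAC128 array, and the low arrays hold 1 WT array of each age. Eif2ak2, the kinase PKR that senses double-stranded RNA and stops translation, was the only member whose change passed, against 0.421% of all genes in the higher direction. It was at 6.48, 6.44, 6.83 and 6.54 in WT and 6.59, 6.66, 6.54 and 6.54 in YAC128 at 6 months. Its old-age levels were 6.64, 6.52 and 6.39 in WT and 7.09, 6.88, 6.72, 7.04 and 6.70 in YAC128, without overlap. Its change was 0.36 (SE 0.15, unadjusted p = 0.0271 by limma), its mean level lay below the median level, and without both YAC128 males M2 its change was 0.31 (unadjusted p = 0.0751 by limma). Ifit1, a protein that binds viral RNA, had differences of 0.20 (SE 0.14) at 6 and 0.40 (SE 0.15) at 18 months.

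The promoters of Eif2ak2 and Ifit1 are shown because they are the member that changed and a classic target of the pathway, and both hold the interferon-stimulated response element, searched on both strands as GAAA, any 2 bases and GAAA. Capitals mark each match, and the sequences are the RefSeq promoters of build GRCm38.p6, from 250 bases before the gene's start to 50 after it.
Eif2ak2, chr17:78882523-78882822, minus strand: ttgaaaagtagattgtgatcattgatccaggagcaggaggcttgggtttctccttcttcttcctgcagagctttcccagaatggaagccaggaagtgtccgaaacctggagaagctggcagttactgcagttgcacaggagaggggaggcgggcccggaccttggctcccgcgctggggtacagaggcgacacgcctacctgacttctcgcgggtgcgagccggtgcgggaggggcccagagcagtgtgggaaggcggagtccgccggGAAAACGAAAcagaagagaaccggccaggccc
Ifit1, chr19:34640639-34640938, plus strand: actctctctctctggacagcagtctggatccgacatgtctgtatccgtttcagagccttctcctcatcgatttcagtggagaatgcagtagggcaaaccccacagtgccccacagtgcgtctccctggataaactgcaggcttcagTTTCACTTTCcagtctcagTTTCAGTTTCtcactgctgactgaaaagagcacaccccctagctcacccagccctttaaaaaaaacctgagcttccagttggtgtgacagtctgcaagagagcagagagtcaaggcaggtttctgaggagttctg
Promoters were listed for 23 of the 33 interferon genes, and 11 of these (47.8%) held the motif, against 943 of all 27025 promoters (3.49%). A match is a description of the letters only.

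MicroRNA genes of a cluster on chromosome 12 had mostly negative changes. This imprinted region makes long non-coding transcripts from the maternal chromosome, which hold many microRNA hairpins and are abundant in neurons. Of the 37 grown genes above the median level 3 lay there, Mir380, Mir341 and Mir487b, and the cluster was described after these values had been seen, as all microRNA genes within 250 kb of Mir341 that have a probeset of their own, 39 of 57. The 3 genes that led to it are among the 39, so the counts below are a description. Their mature sequences, from RefSeq, are given with the seed, bases 2 to 8, in capitals, and the 5 seeds all differ.
mmu-miR-380-5p: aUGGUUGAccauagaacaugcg
mmu-miR-380-3p: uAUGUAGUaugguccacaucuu
mmu-miR-341-5p: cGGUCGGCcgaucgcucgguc
mmu-miR-341-3p: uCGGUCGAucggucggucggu
mmu-miR-487b-5p: uGGUUAUCccuguccucuucg
The hairpins lie at chr12:109711803-109711863 (Mir380), chr12:109611500-109611595 (Mir341) and chr12:109727333-109727414 (Mir487b), all on the plus strand of GRCm38.p6. Arrays of this kind read transcripts that contain the hairpin, and the mature microRNAs were not measured.

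The change was negative in 35 of the 39 genes of the cluster, with a median of -0.19, and in 19 of the 22 above the median level, with a median of -0.20. The median difference of the 39 was -0.0071 at 6 and -0.20 at 18 months. At 18 months 13 of the 39 were lower at an unadjusted p, against 2.37% of all genes, and 0 higher, and the change passed in 4, all lower, against 0.597%. Over all 300 microRNA genes on the array the median change was -0.020, with 1 passing change higher and 9 lower, against 0.421% and 0.597% of all genes. Mir380 was at 8.39, 8.31, 8.34 and 8.11 in WT and 8.36, 8.46, 8.07 and 8.49 in YAC128 at 6 months. Its levels in the old mice were 8.73, 8.60 and 8.57 in WT and 8.49, 8.30, 8.24, 8.10 and 8.49 in YAC128, without overlap, and its change was -0.37 (SE 0.15, unadjusted p = 0.0292 by limma). The mean of the 39 genes was 7.60 to 7.81 in WT and 7.47 to 7.78 in YAC128 at 6 months, and 7.77 to 7.95 in WT and 7.55 to 7.86 in YAC128 at 18 months, so that the list means overlapped at both ages, and the change of this mean was -0.18 (SE 0.12). The median age change was 0.17 in WT and -0.021 in YAC128. Neighbouring hairpins can share 1 transcript, so that the 39 values are not independent. Meg3, the long RNA of the same region, had differences of -0.0034 and -0.10 and a change of -0.099 (SE 0.10). The cluster's median change lay between -0.27 and -0.14 in the fits that leave out 1 array.

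**Figure D4:**
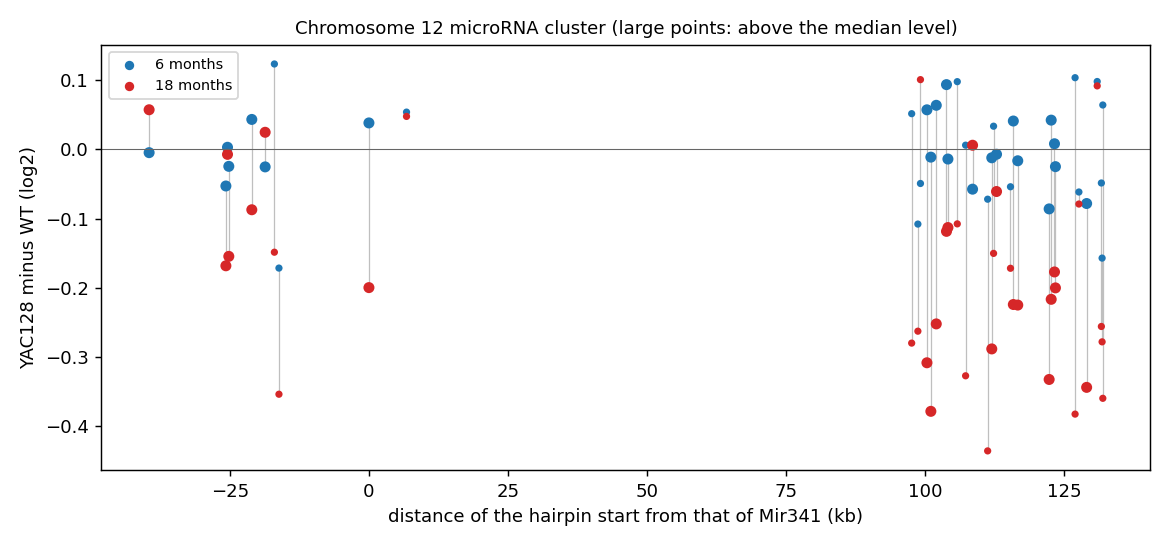
Each microRNA gene of the chromosome 12 cluster is drawn at the distance of its hairpin start from that of Mir341 (kb), with its YAC128 minus WT difference (log2) at 6 months in blue and at 18 months in red, large points being above the median level. Most red points lie below their blue partners, down to -0.38 in Mir323 among the large points.

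Neuronal activity and rhythm genes showed lower values in old YAC128 mice without passing changes. Of 24 immediate early genes, which neurons switch on within minutes of firing, 0 passed for the change, and the median difference was 0.053 at 6 and -0.14 at 18 months. Egr1, a transcription factor, had 0.051 and -0.35 with a change of -0.40 (SE 0.19, unadjusted p = 0.0514 by limma), and Npas4 had 0.070 and -0.64 with a change of -0.71 (SE 0.40). In the 8 arrays of high signal described at the end the median change of the 24 genes had the other sign, 0.12 against -0.098 over all 16 arrays. Only 1 of those 8 arrays was of a young YAC128 mouse, the female F1, whose mean of the list was 8.107. The other young YAC128 mice had means of 8.428 to 8.515, so that the sign there rests on 1 mouse. Of 16 circadian clock genes 12 had the larger difference at 18 months, against 12088 of all 19937 genes. At 18 months 4 of the 16 were lower at an unadjusted p, against 2.37% of all genes, namely Nr1d1, Per3, Dbp and Hlf. The median of the clock genes went from -0.025 to -0.14. Of 33 genes of the postsynaptic density 29 had the larger difference at 18 months, with medians of -0.025 and -0.13. There 3 were lower at 6 months and 7 at 18 months, against 0.968% and 2.37% of all genes, 3 were kept, among them Homer1, a scaffold of glutamate receptors, at -0.21 and -0.28, and 0 passed for the change.

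The remaining lists are given by their medians. Passing changes in them are to be read beside 1.02% of all genes, 0.421% higher and 0.597% lower. Myelin genes went from -0.057 to 0.025 over 25 genes, with a median change of 0.092, positive in 23, and 0 changes passing. The 19 astrocyte genes went from -0.065 to -0.084, the 19 microglia genes from -0.034 to -0.065 and the 17 endothelial and mural genes from -0.026 to -0.015, also with 0. Of the 16 genes of ageing glia and complement 0 passed, and the level of Gfap, the filament protein of reactive astrocytes, rose with age by 1.13 (SE 0.22) in WT and 1.08 (SE 0.20) in YAC128, a change of -0.055 (SE 0.30) in the genotype difference. The 13 oligodendrocyte precursor genes had medians of -0.016 and 0.00016, the 12 antigen presentation genes 0.050 and 0.12, the 15 striatal transcription factors -0.082 and -0.14, the 17 genes of thalamus, septum and hypothalamus -0.017 and 0.065, the 8 of huntingtin and neurotrophins 0.027 and -0.013, and the 67 monoamine, opioid and peptide receptors 0.012 and -0.010. Of these receptors Oprk1 and Tacr2, a tachykinin receptor with a change of -0.29 (SE 0.12), passed. The 12 striatal interneuron genes went from -0.073 to -0.19, with 1 change passing, that of Th, the rate-limiting enzyme of dopamine synthesis, and the 2 blood genes from 0.038 to 0.080. Clustered protocadherins, 22 genes, had medians of 0.076 and 0.11, with Pcdhb4 alone passing. Medians within 0.1 of 0 at both ages, and changes of 0.1 or less in size, were found for synaptic vesicle release, glutamate and GABA receptors, voltage-gated channels, calcium stores, cholesterol synthesis, heat shock, glutathione, oxidative phosphorylation, the proteasome and ribosomal proteins. Of 1015 olfactory receptor genes, mostly below the median level, 6 changes were higher and 15 lower, and of 165 vomeronasal receptor genes 4 and 6, against 0.421% and 0.597% of all genes. Among 62 ribosomal protein genes Rpl7a changed by 0.43 (SE 0.18) and Rpl12 and Rpl23a by -0.27 (SE 0.11) and -0.33 (SE 0.14), and such genes share sequence with many pseudogenes. The genotype table of the study, 63 measured genes that the study chose with these arrays among its own and that are thus no independent evidence, had the same sign at both ages in 63, the larger difference at 18 months in 46 and medians of -0.16 and -0.23. The change passed in 3 of them, Zfp488 upwards and Oprk1 and Gpx6 downwards, and 32 were kept.

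Genes chosen on the arrays of 12 months alone give a view of growth in which neither end was used for the choice. Of the genes above the median level 567 differed between the genotypes at 12 months at an unadjusted p, 198 higher and 369 lower in YAC128, with a median size of 0.16. Of the 567, 466 had the same sign at 6 months and 445 at 18 months, and 394 at both. Among all 11468 genes above the median level, sex-linked genes left out, 6697 had at 12 months the sign of 6 months and 6501 that of 18 months. Signed by the direction of 12 months, the median difference was 0.10 at 6 and 0.11 at 18 months. In that direction 325 were further along at 18 than at 6 months. The lower genes had medians of 0.12 and 0.14, with 227 of 369 further along, and the higher genes had 0.080 and 0.058, with 98 of 198 further along. With the array signal as a term the medians were 0.097 and 0.11 for all 567, 0.068 and 0.12 for the lower and 0.13 and 0.086 for the higher genes. The change passed in 12 of the 567, against 1.02% of all genes, a share that includes genes below the median level. Among the 11469 genes above that level the change passed in the 37 grown, 7 shrunk, 1 reversed and 21 further genes.

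**Figure D5:**
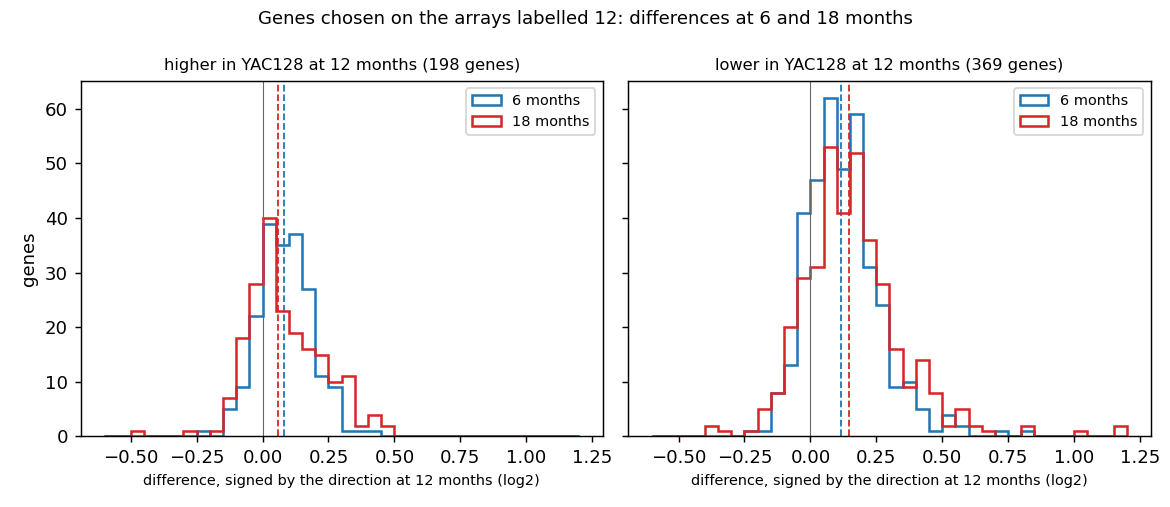
Histograms of the YAC128 minus WT difference (log2), signed by its direction at 12 months, at 6 months (blue) and 18 months (red) for the 198 genes that were higher and the 369 that were lower in YAC128 at 12 months, with dashed lines at the medians and values beyond the axis in the end bins. The distributions of the 2 ages largely coincide, and the red one has the longer tail among the lower genes.

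A difference in signal ran across the arrays, for which the labels name no batch. The mean level of 3 probesets without a gene was 10.03 to 10.23 in 8 arrays and 9.14 to 9.70 in the other 8, and it correlated with the first principal component of the 16 arrays, which held 25.9% of the variance, with r = -0.84, given as a description of arrays that share groups. The high arrays were 3 of 4 WT and 1 of 4 YAC128 at 6 months, and 2 of 3 WT and 2 of 5 YAC128 at 18 months. All 6 female arrays were high and 8 of the 10 male arrays low. With this high or low signal as a term in the fit 1809 probesets changed at an unadjusted p, 0 adjusted, and 232 genes were grown and 238 shrunk. The changes of Oprk1, Gpx6, Slc7a11 and Zfp488 were then -0.57, -1.23, -0.54 and 0.41.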

How the data were processed

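Striatal RNA was hybridised to Affymetrix Mouse Gene arrays. The authors deposited log2 values made by RMA, the robust multichip average, which the submitters' processing notes name without a version and which corrects the background, normalizes by quantiles and summarises each probeset. They were used without further scaling. RMA pulls low signals together, so differences of dim genes may be understated. Of 34760 probesets 21640 carry 1 gene symbol, 1321 several and 11799 none, and a gene was read by its brightest probeset. The 16 arrays of 6 and 18 months were fitted with 4 group means by limma 3.58.1 in R 4.3.3 (lmFit, eBayes), with Benjamini-Hochberg adjustment over all probesets and a threshold of 0.05. The code was tested on simulated data. Arrays give no counts, and the number of arrays (3 to 5 a group) limits the precision. Named genes were, above the median level, the 12 of smallest p in each direction, 6 in each class, 8 kept genes, the 4 of smallest p of each of 36 lists, Htt, Bdnf and the study's genotype table. Further genes, such as Rgs9, Pde10a, Ppp1r1b, Homer1, Gfap, Meg3, Mir380 and Gm10754, were named after their values were seen. The members, lists and rules were chosen with earlier results of these data known. Alternatives were all 26 arrays, sex or a replicate block as a term, quantile normalization, median centring, a level filter, eBayes with an intensity trend, array weights and leaving out each array. The signal term, the groups of 8 arrays it defines and the fit without both YAC128 males M2 were added after seeing the data. The fit without both YAC128 males M2 kept the WT males M2.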

Additional observations from a re-analysis of the deposited data

Results flagged for a closer look

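Over 30 cell type lists and genes, 15 of 90 tests found 1 array apart from the rest of its group by Dixon's criterion, where chance gives about 1 in 20. Some of these genes are members of the lists, so the tests are not independent. The YAC128 males M2 account for 11 of these 15. The 15 hold no value of the old WT group, of 3 arrays, and say nothing about it. Its male M2 was at 10.44 for medium spiny neuron signalling (others 10.83 and 10.90). The YAC128 male M2 of 6 months had mean levels of 8.92 for direct pathway genes (others 9.44 to 9.53) and 10.23 for indirect pathway genes (others 10.88 to 10.95), with Gpx6 at 7.46 (others 8.19 to 8.22) and Slc7a11 at 9.47 (others 9.02 to 9.09). The YAC128 male M2 of 18 months had 8.79 for direct pathway genes (others 9.37 to 9.45), 9.79 for indirect pathway genes (others 10.66 to 10.75), 9.84 for medium spiny neuron signalling (others 10.45 to 10.53) and 8.49 for striatal interneurons (others 8.66 to 8.71). In the same array Gpx6 was at 6.50 (others 7.63 to 7.99), Actn2 at 8.78 (others 9.51 to 9.70) and Scn4b at 9.93 (others 10.61 to 10.87). The other arrays were the YAC128 female F2 of 18 months, at 8.70 for oligodendrocyte precursor genes (others 8.56 to 8.59), the WT male M2 of 6 months, at 8.43 for microglia genes (others 8.65 to 8.70) and at 8.39 for Oprk1 (others 8.58 to 8.59), and the WT female F1 of 6 months, at 7.28 for 2 blood genes (others 7.40 to 7.43).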

How the results depend on the processing

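Of 1071 list medians under the alternatives 1045 moved by less than the spread between arrays, and of 6391 values of named genes 5724 kept their sign and side of the threshold, 211 had the other sign with neither value past the threshold, 276 fell short of it, 176 newly passed and 4 took the other sign where 1 of both values passed, Nr4a1, at 0.5861, and Nr4a3, at 0.4484, in the 8 arrays of high signal and Cited2, at -0.4225, and Olfr592, at 0.02414, in the 8 of low signal. A list median counted among the 1045 could still change sign. That of medium spiny neuron signalling went from -0.1197 to 0.03152 without the old YAC128 male M2. The causes of the shifts below were not tested. Counts are of probesets at an unadjusted p for the change, then at 6 and 18 months, and of genes by class. With all 26 arrays 172 genes were grown, 50 shrunk and 144 kept. With sex as a term 1312 probesets changed, with 261 genes grown, 59 shrunk and 9 reversed. Quantile normalization gave 171 grown, 48 shrunk and 11 reversed. Among probesets above the median level only, 237 changed and 489 and 853 differed at the 2 ages, with 44 genes grown, 9 shrunk and 1 reversed. Array weights gave 1593 changes, 3830 and 3828 differences, and 274 grown, 142 shrunk, 12 reversed and 431 kept. The signal term gave 1809 changes, 2263 differences at 6 months, and 232 grown, 238 shrunk, 11 reversed and 127 kept. That term with sex gave 1745, 2073, 194 grown, 187 shrunk and 9 reversed.

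The 8 arrays of high signal gave 1858 changes and 1869 differences at 6 months, with 225 grown, 263 shrunk, 31 reversed and 134 kept, and median changes of -0.08924 for oligodendrocyte precursors, -0.1631 for microglia, 0.1427 for antigen presentation, 0.1156 for immediate early genes, 0.04067 for calcium stores and 0.01103 for voltage-gated channels. The 8 of low signal gave 1961 and 2645, with 253 shrunk, 10 reversed and 31 kept, and medians of -0.1066 for astrocytes, 0.1164 for antigen presentation, -0.02705 for heat shock, -0.05134 for glutathione, 0.0325 for calcium stores, 0.08282 for synaptic vesicles, 0.01969 for huntingtin and neurotrophins and 0.006093 for monoamine and peptide receptors. Without both YAC128 males M2 the medians were 0.01019 for voltage-gated channels and -0.001675 for monoamine and peptide receptors.

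Sex and replicate number together as a replicate block gave 1274 changed probesets, 1 at an adjusted p, 2812 differences at 18 months, 300 genes grown, 53 shrunk, 10 reversed and 157 kept, and a median of -0.05071 for calcium stores. Of same-number pairs 15 of 20 correlated over 0.1 (median 0.21, range -0.1198 to 0.4877), against 15 of 75 other pairs (median -0.043), and 8 of 16 arrays correlated best with their own number. Since 5 of the 20 did not pass, the numbers were treated as names. These 5 were pairs of M1 or M3, whereas every F1 pair (0.24 to 0.49) and every M2 pair (0.19 to 0.42) passed. Each number here belongs to 1 sex, so same-number pairs are of the same sex, whereas the other pairs include mixed ones. The comparison thus does not separate number from sex. What the F1 arrays or the M2 arrays share was not tested.

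Leaving out 1 array gave 697 to 1304 changed probesets, 0 of them adjusted, 665 to 1736 differences at 6 months (1736 without the WT male M2, 1521 without the YAC128 female F1) and 1120 to 3351 at 18 months (without the WT males M1 and M2), with 74 to 346 genes grown, 25 to 82 shrunk, 2 to 6 reversed and 48 to 172 kept. Median changes ran from -0.09053 to 0.1318 for ageing glia, -0.05686 to 0.002601 for calcium stores, -0.05691 to 0.07596 for endothelial cells, 0.01599 to 0.1564 for interferon genes, -0.169 to 0.08551 for microglia, -0.1414 to -0.0275 for the postsynaptic density, -0.2396 to -0.04461 for striatal interneurons and -0.02915 to 0.01898 for voltage-gated channels. Wider ranges that crossed 0 were -0.2674 to 0.05681 for the direct and -0.3148 to 0.0401 for the indirect pathway. Others were -0.2454 to 0.152 for cortical projection neurons, -0.2082 to 0.09118 for striatal transcription factors and -0.06332 to 0.3863 for thalamus, septum and hypothalamus. The small groups limit every class to changes of about the size of the intervals given.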

Other observations

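Of further grown genes above the median level, Th, in dopamine synthesis, had differences of 0.083 at 6 and -0.28 at 18 months and a change of -0.37 (SE 0.17, unadjusted p = 0.0497 by limma). Those chosen after their values were seen were Mef2d, Jag1 and Dusp14. Mef2d, a transcription factor of neuronal activity, had 0.066 and -0.22 (change -0.29, SE 0.13), Jag1, a ligand of Notch, 0.028 and -0.20 (change -0.23, SE 0.10), and Dusp14, a phosphatase of MAP kinases, 0.047 and -0.34 (change -0.39, SE 0.16). Without both YAC128 males M2 the unadjusted p was 0.135 for Th, 0.114 for Mef2d, 0.0734 for Jag1 and 0.0406 for Dusp14 (limma).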
